A study of Mus musculus with 12 samples.

Results

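The transcripts examined here encode the hypoxia-inducible factor (HIF) subunits and the enzymes that mark them according to oxygen. They are 10 of the 37583 genes counted, taken by their Ensembl mouse gene IDs: the alpha subunits Hif1a, Epas1 and Hif3a, the beta subunits Arnt and Arnt2, the prolyl hydroxylases Egln1, Egln2 and Egln3, the asparaginyl hydroxylase Hif1an, and Vhl. All 10 were found in the count tables, and 9 had enough counts to be tested. Egln1 and Egln3, which HIF itself induces, are described apart from the rest.

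The data are 12 RNA-seq libraries of Ocy454, a mouse osteocyte line from long bone. The labels name the control cells original cells and the others HDAC4 and HDAC5 deletion cells (DKO). Each line was left static or put under fluid flow shear stress (FFSS) lasting 3 h, with 3 libraries in each of the groups control static, control FFSS, DKO static and DKO FFSS. Per the design text the cells were held for 14 days at 37 °C. Per the study's methods, the line was a single-cell subclone carrying a temperature-sensitive T antigen, inactive at that temperature, and flow was applied by orbital rotation of the dishes. Those methods mention control cells with an empty guide lentivirus after describing the FAK deletion clones, and that sentence does not name the control cells of these libraries. Whether the DKO cells were 1 clone is not given in the sources used here, so genotype and cell line cannot be told apart, and the labels do not say whether the replicates were separate cultures, so p-values measure only the spread between these libraries. DKO is used here as the name the labels give: between static DKO and control cells Hdac5 changed by −0.65 (edgeR adjusted p = 7.94e-06) and Hdac4, counted under 2 IDs, by −0.85 and −0.39 on the log2 scale, so both transcripts were lower but not lost. Under FFSS Hdac5 was not lower in DKO cells (0.19, edgeR adjusted p = 0.0512, and 0.27, edgeR adjusted p = 0.000487, without control FFSS replicate 1). The Hdac4 IDs were lower there, at −1.48 (edgeR adjusted p = 5.65e-07) and −0.50 (edgeR adjusted p = 0.00638), or −1.59 and −0.28 without that library.

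HIF is a pair of an alpha subunit and a beta subunit that binds DNA and switches on genes for glycolysis, glucose uptake, blood vessel growth and survival at low oxygen. When oxygen is present, the EGLN enzymes hydroxylate prolines of the alpha subunits, VHL recognises the hydroxylated protein and has it degraded, and HIF1AN (also called factor inhibiting HIF) hydroxylates an asparagine that blocks coactivator binding. HIF is therefore set mainly at the protein level, which RNA counts do not measure, whereas Egln1 and Egln3 transcripts are themselves HIF targets and form a feedback loop. Osteocytes lie within mineralised matrix, where oxygen is low, and HIF in bone cells is known for its link to Vegfa and bone vessels.

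HIF binds the core letters ACGTG or GCGTG. To show what the HIF-induced Egln genes and Egln2 hold next to their start sites, the 250 bases before each RefSeq start (GRCm38.p6, minus strand in each case) are printed 5′ to 3′, with every match to ACGTG or GCGTG on either strand in capitals, so that CACGC marks GCGTG on the other strand.
Egln3 (chr12:54203875-54204124): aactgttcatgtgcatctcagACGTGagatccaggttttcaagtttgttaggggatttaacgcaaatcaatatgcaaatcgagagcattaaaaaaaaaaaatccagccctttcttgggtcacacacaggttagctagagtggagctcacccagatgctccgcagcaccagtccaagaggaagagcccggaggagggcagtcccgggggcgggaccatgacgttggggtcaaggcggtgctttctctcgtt
Egln1 (chr8:124949255-124949504): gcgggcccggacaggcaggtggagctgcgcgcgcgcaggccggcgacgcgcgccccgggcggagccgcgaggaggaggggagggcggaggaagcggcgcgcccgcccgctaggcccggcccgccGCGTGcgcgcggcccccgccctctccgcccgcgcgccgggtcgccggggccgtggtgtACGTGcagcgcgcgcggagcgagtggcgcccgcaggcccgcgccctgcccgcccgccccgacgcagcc
Egln2 (chr7:27166803-27167052, the more upstream of 2 windows): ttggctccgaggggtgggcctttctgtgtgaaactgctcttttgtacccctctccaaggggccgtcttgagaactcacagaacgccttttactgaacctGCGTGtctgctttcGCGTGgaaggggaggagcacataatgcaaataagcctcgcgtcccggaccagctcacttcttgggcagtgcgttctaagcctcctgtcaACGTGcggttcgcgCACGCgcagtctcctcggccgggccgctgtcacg
Egln3 held 1 match, an ACGTG lying 229 bases before the start. Egln1 held 2, a GCGTG at 126 and an ACGTG at 68 bases, and this Egln2 window held 4, against 1 in its other window. Among the other members with a window, Hif1a held 3 matches, Hif3a 2 and Arnt 1, and Arnt2, Hif1an and Vhl held 0. The Hif1a matches at 135 and 134 bases were 1 CACGTG, which reads the same on both strands and so was counted on each. At least 1 match was present in 38.6% of 32851 such windows of all genes (ACGTG in 16.6% and GCGTG in 28.2%).

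Libraries held between 17.6 and 19.2 M reads in genes, so that 3 counts, the limit that a count of 0 allows, corresponded to between 0.146 and 0.178 CPM (counts scaled to the library total and its TMM factor). Control FFSS replicate 1 stood apart from the others of its group before any member was considered. Over genes above a minimum summed count per pair, the chi-square per degree of freedom was 68.7 and 62.5 between it and replicates 2 and 3. The value was 6.90 between replicates 2 and 3, and between 2.10 and 6 for the 9 pairs of the other groups. The share of reads outside annotated genes was 6.05% in that library, against 9.45% and 10.3% in control FFSS replicates 2 and 3. That share also moved with FFSS, from between 5.25% and 5.36% in static to between 6.05% and 10.3% in FFSS libraries of control cells, and from between 7.27% and 7.35% to between 8.16% and 8.80% in DKO cells, and for members fits with it as a covariate are given where they change a call. Member fold changes that use control FFSS are given with and without replicate 1, and those of other genes where leaving it out changes a call or moves the value by over 1.5 times. Of 6 osteocyte marker genes, 4 averaged more than 1 CPM in each control group and 5 in each DKO group, but their summed level was between 62.5 and 184 CPM in control and between 3600 and 4020 CPM in DKO libraries. In DKO libraries that sum was made up mainly of Sost, Phex and Dmp1, Mepe was at or below 0.210 CPM in every control library, and Pdpn went the other way, from 28.4 ± 0.85 CPM in static control to 5.11 ± 0.15 CPM in static DKO cells (SD, n = 3 each, log2 difference −2.47, edgeR adjusted p = 8.57e-10). The 4 chondrocyte markers summed to between 50.1 and 102 CPM in control and between 2000 and 2940 CPM in DKO libraries, the 6 osteoblast marker IDs to between 5990 and 20700 CPM and between 50200 and 57800 CPM, and the 4 endothelial markers to at most 1.02 CPM in any library. In static DKO cells the chondrocyte sum was mainly Col2a1 (1820 ± 243 CPM) and Col10a1 (602 ± 53.2 CPM). Between the static genotypes Sox9 was also higher in DKO cells (1.33, edgeR adjusted p = 3.36e-08), and Acan did not pass (−0.26, edgeR adjusted p = 0.653). Of the 4 blood-cell markers only Cd68 averaged more than 1 CPM in a group, and the list summed to between 15.6 and 28.5 CPM in control and between 2.80 and 3.45 CPM in DKO libraries. The osteoblast sum was mainly Col1a1 (17100 ± 1930 CPM in static control and 50400 ± 3850 CPM in static DKO cells, SD, n = 3 each). Bglap was also higher in static DKO cells (180 ± 3.52 against 15.8 ± 2.29 CPM, log2 difference 3.51, edgeR adjusted p = 3.91e-05). Runx2 (0.27, edgeR adjusted p = 0.118), Sp7 (0.55, edgeR adjusted p = 0.25) and Alpl (0.16, edgeR adjusted p = 0.72) did not pass between the static genotypes. With FFSS, the osteoblast sum went from between 17100 and 20700 CPM in static control to between 5990 and 16900 CPM in FFSS control libraries, with Sp7 at −1.59 (edgeR adjusted p = 0.0129) and Runx2 at −0.66 (edgeR adjusted p = 0.00444) on the log2 scale, and the blood-cell sum, mainly Cd68, from between 23.9 and 28.5 CPM to between 15.6 and 23.5 CPM. Of 17 marker IDs tested, 7 passed with FFSS in control cells, where 35.8% of all genes passed. Besides Sp7 and Runx2 these were Col1a1, Sox9 and Cd68, which fell, and Pdpn (0.63, edgeR adjusted p = 0.00039) and the blood marker Csf1r (1.43, edgeR adjusted p = 0.00784), which rose. Csf1r averaged only 0.315 CPM in static control and 0.86 CPM in FFSS control libraries. It overlaps Hmgxb3 on the other strand, which held 13708 counts against its 138, and is uncertain for that reason. When control FFSS replicate 1 was left out 12 of the 17 marker IDs passed, where 55.0% of all genes passed. In that fit Sp7 was at −2.33, the osteocyte markers Phex at −2.93 (edgeR adjusted p = 5.72e-05) and Dmp1 at −0.90 (edgeR adjusted p = 0.00451, against 0.54 over all libraries), and the chondrocyte marker Acan at −1.96 (edgeR adjusted p = 1.37e-05). The osteocyte, chondrocyte, osteoblast and blood-cell sums thus moved with genotype, and some markers of each list passed with FFSS in control cells. The part of these markers in the results given here was not tested. In bulk samples, fewer cells of a type and less RNA per cell cannot be told apart.

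In control cells under FFSS the HIF-induced pair fell further than the other members over all libraries. Egln3 fell 10.1-fold and Egln1 2.20-fold, and both were called (edgeR quasi-likelihood test with Benjamini-Hochberg adjusted p under 0.05 over 14904 genes, and more than a 2-fold change). Of the other 7 members tested, 4 passed the adjusted p and 0 were called: Vhl, Arnt and Hif1a fell and Hif1an rose, with log2 fold changes of all 7 between −0.63 and 0.56. Thus 6 of 9 members passed, 5 lower and 1 higher, where 35.8% of all genes passed (18.1% lower and 17.7% higher), and 2 of 9 were called, where 5.93% of all genes were. Without control FFSS replicate 1, 9 of 9 members passed, where 55.0% of all genes did, and Epas1 then fell about as far as Egln1 (log2 fold changes −1.43 and −1.40).

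In DKO cells only Egln3 was past the threshold, falling 4.97-fold, and it was also called, while Egln1 was at −0.63 on the log2 scale. The share of all genes that passed was 0.872% (0.497% lower and 0.376% higher), and 0.0872% were called. The other 7 members lay between −0.48 and 0.25 on the log2 scale. At an unadjusted p under 0.05, 4 of the 9 members were counted in DKO cells, where 13.5% of all genes were.

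**Figure D1:**
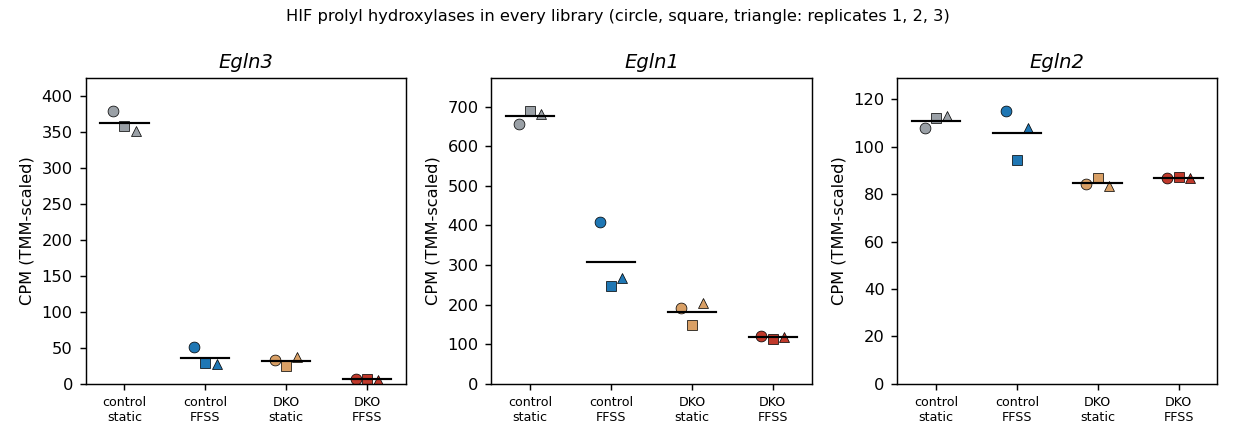
TMM-scaled CPM of Egln3, Egln1 and Egln2 on linear axes from 0, with a symbol for each of the 3 libraries of a group and a line at their mean. Egln3 is between 351 and 379 CPM in control static libraries and at most 51.5 CPM in every other library, whereas Egln2 stays between 83.4 and 115 CPM.

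Egln3 encodes the prolyl hydroxylase also known as PHD3, whose transcript is strongly induced by HIF. Its gene (ENSMUSG00000035105) lies on mm9 chromosome 12, from 55279968 to 55304847, on the minus strand. Egln3 was at 379, 358 and 351 CPM in static control replicates 1 to 3, and at 51.5, 28.3 and 27.8 CPM in control FFSS. In DKO cells it was at 33.6, 24.6 and 37.3 CPM when static and at 6.63, 7.02 and 5.54 CPM under FFSS. Each FFSS library was thus below each static library of its genotype, and control cells under FFSS overlapped static DKO cells. The log2 fold change with FFSS was −3.34 in control cells (SE 0.24, edgeR adjusted p = 1.59e-05) and −2.31 in DKO cells (SE 0.28, edgeR adjusted p = 0.00734). Ranked by log2 fold change over the 14904 genes tested, Egln3 was the 4th lowest with FFSS in control cells and the 3rd lowest in DKO cells. In the control library that stood apart the fall was smaller, 2.81 on the log2 CPM scale against 3.68 and 3.70 in replicates 2 and 3, and without that library the log2 fold change was −3.69. Leaving out DKO FFSS replicate 2 took the edgeR adjusted p in DKO cells to 0.0545, with a log2 fold change of −2.38. In that fit 0.0866% of all genes passed.

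Between genotypes, Egln3 was 11.4-fold lower in static DKO than in static control cells (log2 difference −3.51, SE 0.24, edgeR adjusted p = 9.78e-07) and 5.60-fold lower under FFSS (−2.49, SE 0.28, edgeR adjusted p = 3.02e-05), or −2.13 without control FFSS replicate 1. It was the 75th lowest of the 14904 genes in the static comparison. The difference between the FFSS effects, DKO minus control, was 1.03 (SE 0.36) and was not past the threshold (edgeR adjusted p = 0.135). Without control FFSS replicate 1 that difference was 1.38 (edgeR adjusted p = 0.000147), and DESeq2 gave 1.04 (DESeq2 adjusted p = 0.0125) on all libraries.

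Egln1 encodes PHD2, the main prolyl hydroxylase of HIF1A in normal oxygen. It lies at chromosome 8 (ENSMUSG00000031987, 127432496 to 127473154, minus strand) and was the most abundant member per length in control cells. Its levels were 657, 689 and 681 CPM in static control, 409, 246 and 268 in FFSS control, 191, 148 and 204 in static DKO, and 120, 114 and 118 in FFSS DKO libraries. No group overlapped another, and control FFSS replicate 1 lay closest to the static control libraries. With FFSS, Egln1 changed by −1.14 on the log2 scale in control cells (SE 0.17, edgeR adjusted p = 0.000963) and by −1.40 without that replicate. In DKO cells the log2 fold change was −0.63 (SE 0.17) and did not pass (edgeR adjusted p = 0.141), although the fit of the 6 DKO libraries alone gave an adjusted p of 0.0315 and DESeq2 0.00915. The FFSS effects differed by 0.51 (SE 0.24, edgeR adjusted p = 0.238), and by 0.77 (edgeR adjusted p = 0.000563) without control FFSS replicate 1. Egln1 was 3.73-fold lower in DKO than in control cells when static (edgeR adjusted p = 5.36e-06) and 2.62-fold lower under FFSS (edgeR adjusted p = 5.40e-05), which became −1.13 on the log2 scale without that library.

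Egln2 encodes PHD1, which is not known as a HIF target, and its fold changes were the smallest of the 3. It lies at chromosome 7 (ENSMUSG00000058709, 27943677 to 27951821, minus strand). Egln2 was at 108, 112 and 113 CPM in static control, 115, 94.4 and 108 in FFSS control, 84.3, 86.7 and 83.4 in static DKO, and 86.8, 87.1 and 86.7 in FFSS DKO libraries. The control groups overlapped, and the DKO groups differed by less than 1 CPM at their nearest libraries. The log2 fold change with FFSS was −0.07 (SE 0.06, edgeR adjusted p = 0.412) in control and 0.03 (SE 0.07, edgeR adjusted p = 0.889) in DKO cells, and its sign in control cells turned with library totals alone (0.05) and with the share of reads outside genes as a covariate (0.05). Without control FFSS replicate 1 it was −0.14 (edgeR adjusted p = 0.0396). Egln2 was lower in DKO cells, by 0.39 on the log2 scale when static (edgeR adjusted p = 0.000157) and by 0.28 under FFSS (edgeR adjusted p = 0.00192), a difference of −0.22 without that library. Its 11 bases of overlap with Cyp2t4 on the other strand concern a gene with 122 counts in all 12 libraries, against 21901 for Egln2.

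The prolyl hydroxylase transcripts together, scaled to exon length and library total (RPKM), summed to 368 ± 2.17 in static control, 139 ± 33.4 in FFSS control, 93.8 ± 10.2 in static DKO and 66.8 ± 0.63 in FFSS DKO cells (SD, n = 3 each). Egln3 made up 37.0% ± 1.47 of that sum in static control cells, 9.52% ± 1.32 in FFSS control, 12.6% ± 1.30 in static DKO and 3.60% ± 0.43 in FFSS DKO cells. The Egln2 share was 10.8% ± 0.28 in static control, 27.8% ± 4.06 in FFSS control, 32.6% ± 4.41 in static DKO and 46.4% ± 0.50 in FFSS DKO cells. Its own level went from 39.7 ± 0.97 RPKM in static control to 31.0 ± 0.07 RPKM in FFSS DKO cells. Egln1 was at most 62.7% in the group means. The per-length ratio of Egln3 to Egln2 was 3.44 ± 0.23 in static control, 0.35 ± 0.11 in FFSS control, 0.40 ± 0.09 in static DKO and 0.08 ± 0.01 in FFSS DKO cells. Ratios of Egln3 to Egln1, Egln3 to Egln2 and Egln1 to Egln2 did not overlap between the groups in any of the 12 comparisons made of them. Each of these gave p = 0.1 by an exact two-sided permutation test, the smallest that 3 against 3 allows (0.111 adjusted over 20 ratio tests), so the design cannot bring a ratio below 0.05.

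**Figure D2:**
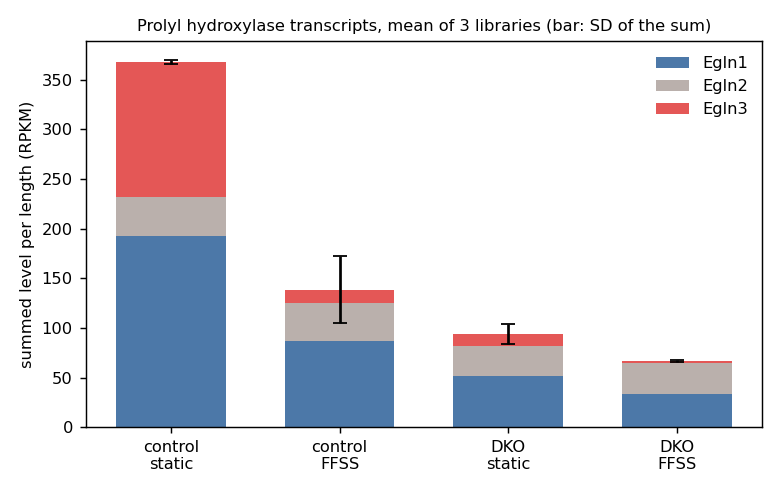
Mean per-length level (RPKM) of Egln1, Egln2 and Egln3 stacked for each group, on an axis from 0, with the SD of the sum over 3 libraries as the error bar. The sum is 368 in control static and 66.8 in DKO FFSS cells, while the Egln2 segment stays between 30.3 and 39.7.

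Hif1a was the most abundant alpha subunit per length in every group and was about 1.5-fold higher in DKO cells. The gene (ENSMUSG00000021109) lies on chromosome 12, from 75002362 to 75048517, on the plus strand. Its levels were 275, 264 and 258 CPM in static control, 232, 231 and 211 in FFSS control, 388, 404 and 399 in static DKO, and 351, 330 and 345 in FFSS DKO libraries. Gm15283, which shares 330 bases with it on the other strand, had 25 counts in all libraries against 68401. Every DKO library exceeded every control library, and FFSS libraries lay below static libraries in both genotypes. The difference between genotypes was 0.58 on the log2 scale when static (SE 0.05, edgeR adjusted p = 7.61e-07) and 0.61 under FFSS (SE 0.06, edgeR adjusted p = 4.97e-07), where it was 0.63 without control FFSS replicate 1. With FFSS, Hif1a changed by −0.24 (SE 0.05, edgeR adjusted p = 0.00468) in control cells and by −0.22 (SE 0.05, edgeR adjusted p = 0.0858) in DKO cells. The control value passed neither with library totals alone, which gave −0.12 (edgeR adjusted p = 0.0857) while moving the median of all genes to 0.13, nor in the fit of 6 libraries (edgeR adjusted p = 0.0525), nor with the covariate (−0.16, edgeR adjusted p = 0.146), and was −0.27 without control FFSS replicate 1. The DKO value passed with DESeq2 (DESeq2 adjusted p = 0.0112) and in the fit of the 6 DKO libraries (edgeR adjusted p = 0.00079).

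Epas1, which encodes HIF2A, was the member most affected by the library that stood apart. It lies at chromosome 17 (ENSMUSG00000024140, 87153247 to 87232750, plus strand). Its levels were 96.8, 84.2 and 88.8 CPM in static control, 108, 28.2 and 38.5 in FFSS control, 151, 163 and 151 in static DKO, and 191, 186 and 175 in FFSS DKO libraries. Control FFSS replicate 1 was above all static control libraries and replicates 2 and 3 were below all of them, while the DKO FFSS libraries were above the static DKO libraries. Over all libraries the log2 fold change with FFSS in control cells was −0.63 (SE 0.41, edgeR adjusted p = 0.264), and without control FFSS replicate 1 it was −1.43 (SE 0.09, edgeR adjusted p = 2.22e-10). That change passed with limma-voom on all libraries (−0.88, limma-voom adjusted p = 0.0478), and its sign turned with the covariate (0.50, edgeR adjusted p = 0.215). In DKO cells it was 0.25 (SE 0.40, edgeR adjusted p = 0.871), and in the fit of the 6 DKO libraries 0.25 (SE 0.05, edgeR adjusted p = 0.000517). The difference between the FFSS effects was 0.87 (SE 0.57, edgeR adjusted p = 0.385) with all libraries and 1.68 (SE 0.12, edgeR adjusted p = 1.88e-09) without the library. Epas1 was 3.16-fold higher in DKO than in control cells under FFSS (log2 difference 1.66, SE 0.41, edgeR adjusted p = 0.00761), and 2.47 on the log2 scale without it. The static difference of 0.79 did not pass when the spread of all groups was shared (SE 0.40, edgeR adjusted p = 0.134), and it did in the fit of the 6 static libraries (edgeR adjusted p = 7.86e-14). The per-length ratio of Epas1 to Hif1a was 0.38 ± 0.02 in static control, 0.29 ± 0.20 in FFSS control, 0.43 ± 0.01 in static DKO and 0.60 ± 0.03 in FFSS DKO cells.

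Hif3a, which encodes an alpha subunit with inhibitory forms, had 0 counts in all 12 libraries and was not tested. A count of 0 allows a level of up to 0.178 CPM in the library where 3 counts weigh most, DKO FFSS replicate 2. Its gene (ENSMUSG00000004328) lies on chromosome 7, from 17616856 to 17647776, on the minus strand.

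**Figure D3:**
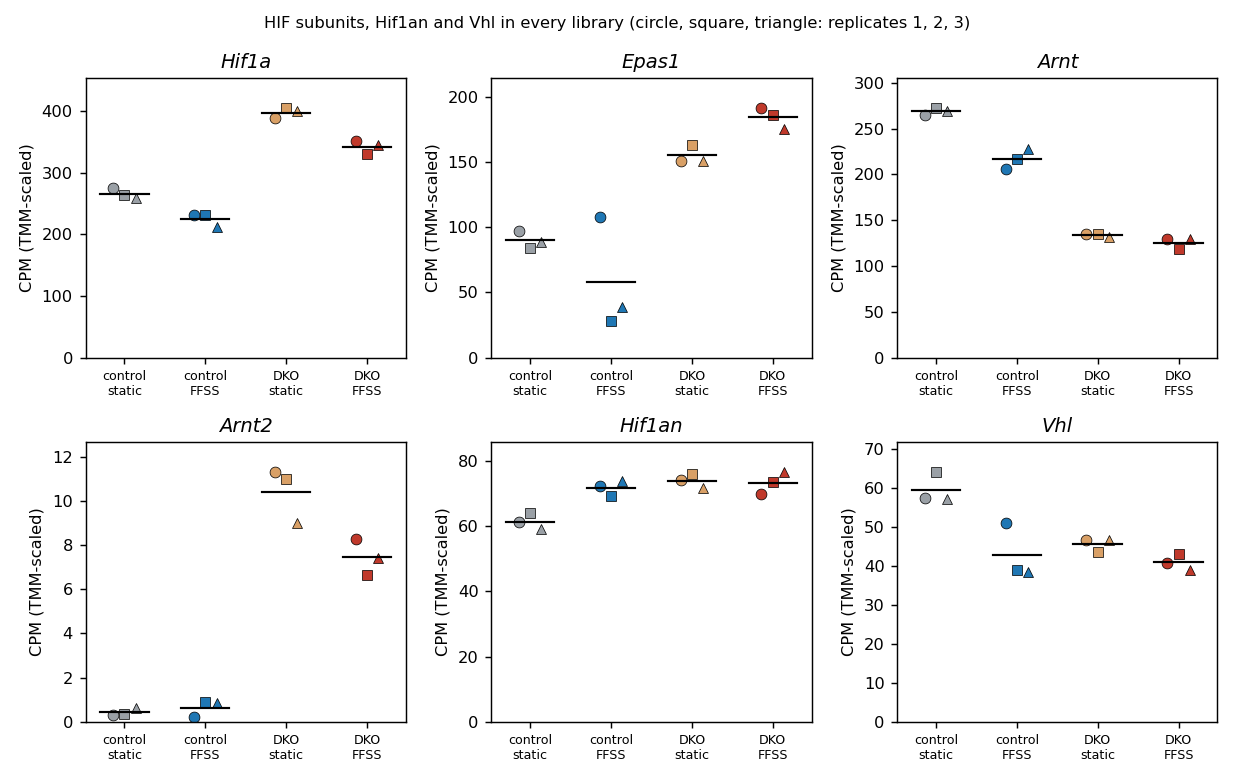
TMM-scaled CPM of Hif1a, Epas1, Arnt, Arnt2, Hif1an and Vhl on linear axes from 0, with a symbol for each of the 3 libraries of a group and a line at their mean. In control FFSS, Epas1 is at 108 CPM in replicate 1 (circle) and at 28.2 and 38.5 CPM in the others, and Arnt2 is below 1 CPM in every control library.

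The beta subunits moved in opposite directions between the genotypes. Arnt encodes the partner that HIF alpha subunits share with the aryl hydrocarbon receptor, and Arnt2 a close relative known mainly from neurons. Arnt (ENSMUSG00000015522, chromosome 3, 95238310 to 95301162, plus strand) was at 265, 272 and 269 CPM in static control, 206, 217 and 228 in FFSS control, 135, 135 and 132 in static DKO, and 129, 119 and 129 in FFSS DKO libraries. Every DKO library held less Arnt than every control library. Arnt was 2.00-fold lower in static DKO cells (SE 0.05 on the log2 scale, edgeR adjusted p = 2.98e-09), at the limit of a call, and 1.73-fold lower under FFSS (−0.79, SE 0.05, edgeR adjusted p = 3.05e-08). The latter was −0.825 without control FFSS replicate 1. FFSS changed it by −0.31 in control cells (SE 0.05, edgeR adjusted p = 0.000909), or −0.27 without that library, and by −0.09 in DKO cells (SE 0.05, edgeR adjusted p = 0.519). The difference of these effects was 0.21 (edgeR adjusted p = 0.116), and passed with DESeq2 (DESeq2 adjusted p = 0.047), with the covariate (edgeR adjusted p = 0.0189) and without control FFSS replicate 1 (0.18, edgeR adjusted p = 0.0349).

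Arnt2 (ENSMUSG00000015709, chromosome 7, 91394791 to 91558469, minus strand) was counted 6, 7 and 12 times in static control, 4, 18 and 17 in FFSS control, 205, 200 and 162 in static DKO, and 150, 112 and 133 in FFSS DKO libraries. It was detected in all libraries and was low in control cells. Arnt2 was 23.5-fold higher in static DKO than control cells (log2 difference 4.55, SE 0.30, edgeR adjusted p = 2.05e-08), the 31st highest of the 14904 genes, and 11.4-fold higher under FFSS (3.52, SE 0.28, edgeR adjusted p = 1.62e-07), or 3.11 without control FFSS replicate 1. Its log2 fold change with FFSS was 0.56 (SE 0.44, edgeR adjusted p = 0.348) in control cells, with replicate 1 below and replicates 2 and 3 above the static libraries, and −0.48 (SE 0.20, edgeR adjusted p = 0.316) in DKO cells. Without control FFSS replicate 1 the control value was 0.96 (edgeR adjusted p = 0.0337). The difference between the FFSS effects, DKO minus control, then went from −1.04 (edgeR adjusted p = 0.216) to −1.44 (edgeR adjusted p = 0.00539). Per length, Arnt2 made up 0.22% ± 0.08 of the beta subunit sum in static control and 9.39% ± 0.91 in static DKO cells, so Arnt remained the larger part in each group.

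Vhl, the substrate-recognition part of the ubiquitin ligase that removes hydroxylated alpha subunits, was lower under FFSS in control cells. The gene (ENSMUSG00000033933) lies on chromosome 6, from 113573953 to 113581627, on the plus strand. Its levels were 57.5, 64.1 and 57.3 CPM in static control, 51.0, 39.0 and 38.4 in FFSS control, 46.7, 43.5 and 46.8 in static DKO, and 40.7, 43.0 and 39.1 in FFSS DKO libraries. The static control libraries were the highest of the 4 groups, and replicate 1 of control FFSS again lay nearest to them. FFSS changed Vhl by −0.48 in control cells (SE 0.10, edgeR adjusted p = 0.00246) and by −0.16 in DKO cells (SE 0.10, edgeR adjusted p = 0.561). With the covariate the control value did not pass (−0.16, edgeR adjusted p = 0.302). Without control FFSS replicate 1 it was −0.63, and the difference between the effects rose from 0.32 (edgeR adjusted p = 0.18) to 0.47 (edgeR adjusted p = 0.000178). Vhl was 0.39 lower in DKO cells on the log2 scale when static (edgeR adjusted p = 0.00382), and the difference under FFSS was −0.06 (SE 0.10, edgeR adjusted p = 0.608), or 0.08 without that library.

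Over all libraries Hif1an was the only member that passed as higher with FFSS in control cells, and without control FFSS replicate 1 Arnt2 did so too. It lies at chromosome 19 (ENSMUSG00000036450, 44637340 to 44650764, plus strand). Its levels were 61.2, 63.9 and 59.0 CPM in static control, 72.3, 69.1 and 73.9 in FFSS control, 74.1, 76.0 and 71.6 in static DKO, and 70.0, 73.6 and 76.5 in FFSS DKO libraries. The static control libraries lay below all others, and the remaining groups overlapped. The log2 fold change was 0.22 with FFSS in control cells (SE 0.06, edgeR adjusted p = 0.00938), 0.22 without control FFSS replicate 1, and 0.27 between static DKO and control cells (SE 0.06, edgeR adjusted p = 0.00133). The control value did not pass in the fit of 6 libraries (edgeR adjusted p = 0.0646) or with the covariate (edgeR adjusted p = 0.0996). In DKO cells Hif1an changed by −0.01 (SE 0.06, edgeR adjusted p = 0.969) with FFSS, and the genotypes differed by 0.03 (edgeR adjusted p = 0.666) under FFSS, or 0.04 without that library.

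Between static DKO and control cells 8 of 9 members passed, 5 lower in DKO cells (Egln3, Egln1, Arnt, Egln2 and Vhl) and 3 higher (Arnt2, Hif1a and Hif1an), where 54.2% of all genes passed (27.2% lower and 27.0% higher). Of these, 4 were called (Egln3, Egln1, Arnt and Arnt2), against 15.3% of all genes. Under FFSS, 7 of 9 passed, 4 lower (Egln3, Egln1, Arnt and Egln2) and 3 higher (Arnt2, Epas1 and Hif1a), where 56.6% of all genes passed (29.6% lower and 27.0% higher). Egln3, Egln1, Arnt2 and Epas1 were called there, against 17.2% of all genes. For the difference of the FFSS effects between genotypes, 0 of 9 members passed with edgeR, where 3.97% of all genes did (2.28% higher, 1.68% lower, and 0.651% called). At an unadjusted p under 0.05 it counted 4 members, where 23.8% of all genes were counted. DESeq2 passed 2, where 9.59% of all genes passed, limma-voom 0, where 4.52% did, and the fit without control FFSS replicate 1 passed 7, where 37.6% of all genes passed.

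**Figure D4:**
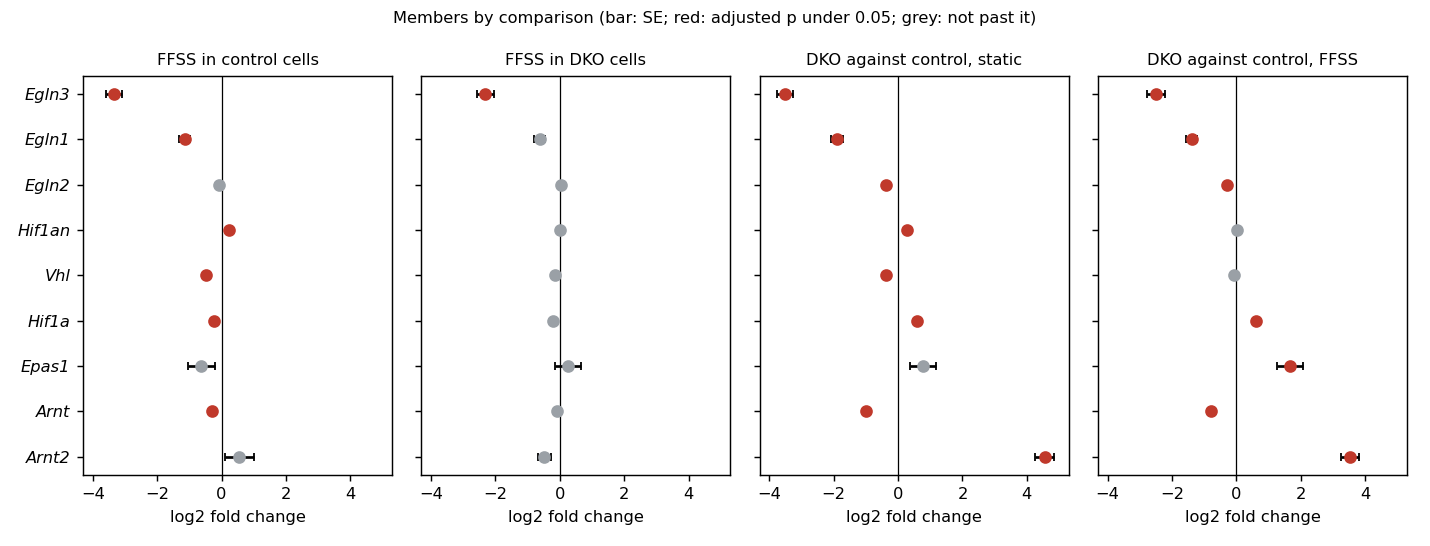
Log2 fold change of the 9 tested members (x axis) in each of 4 comparisons, with the SE as the bar, red where the edgeR adjusted p is under 0.05 and grey elsewhere. With FFSS, Egln3 and Egln1 lie at −3.34 and −1.14 in control cells, and only Egln3, at −2.31, is red in DKO cells.

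Ordered by mean level per length, static control cells held Egln1 (192 ± 4.64 RPKM), Egln3 (136 ± 5.51), Hif1a (45.1 ± 1.47), Egln2 (39.7 ± 0.97), Arnt (33.5 ± 0.41), Vhl (19.9 ± 1.30), Epas1 (16.9 ± 1.21), Hif1an (9.29 ± 0.37) and Arnt2 (0.07 ± 0.03), with no overlap between neighbours. In control FFSS cells Egln1 led at 87.5 ± 25.2 RPKM and Egln3 came 6th at 13.5 ± 5.10, overlapping Vhl above it and Epas1 below it. In static DKO cells Hif1a led at 67.4 ± 1.36 RPKM, followed by Egln1 at 51.6 ± 8.35, and Egln3 came 7th at 11.9 ± 2.45, overlapping Hif1an. In DKO FFSS cells Hif1a led at 58.0 ± 1.83 RPKM, Epas1 (34.7 ± 1.5) overlapped Egln1 (33.4 ± 0.76), and Egln3 came 8th at 2.40 ± 0.29, above Arnt2 (1.25 ± 0.14).

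Other known HIF-induced genes were compared with Egln1 and Egln3. Of a list of 20, all tested, 17 passed with FFSS in control cells, 16 lower and 1 higher (Pfkfb4), and 11 were called lower, where 35.8% of all genes passed, 18.1% lower, and 5.93% were called. Their median log2 fold change was −1.12, against 0.01 over all genes. The called genes were Ankrd37, Adm (adrenomedullin), Slc2a1 (the glucose transporter GLUT1), Ddit4 and Bnip3 (stress and mitophagy genes), P4ha1 and P4ha2 (collagen prolyl hydroxylases), Ndrg1, Pdk1 (which restrains pyruvate entry into mitochondria), Mxi1 and Kdm3a (a histone demethylase). Slc2a1 went from 438 ± 20.8 to 110 ± 7.80 CPM in control cells (SD, n = 3 each), a log2 fold change of −1.99 (edgeR adjusted p = 2.83e-08). Vegfa went from 378 ± 17.1 to 226 ± 27.8 CPM (−0.74, edgeR adjusted p = 4.33e-05) and Ldha from 2760 ± 17.1 to 1470 ± 499 CPM (−0.91, edgeR adjusted p = 0.00483), so both fell but were not called over all libraries. When control FFSS replicate 1 was left out, 19 of the 20 passed and 15 were called lower, where 55.0% of all genes passed and 11.3% were called. Ldha was then called (−1.22, edgeR adjusted p = 4.69e-08), as were Pgk1 (−1.27), Higd1a (−1.19) and Car9 (−1.43). With the covariate 11 of the 20 passed, where 15.3% of all genes did. Ankrd37 overlaps Ufsp2 and Lrp2bp on the other strand, which held 12028 counts against its 2554, and is uncertain for that reason.

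In DKO cells 5 of these 20 genes passed with FFSS, all lower, and 4 were called: Ankrd37 (log2 fold change −3.07), Bnip3 (−1.61), Slc2a1 (−1.43) and Ddit4 (−1.19), with Kdm3a at −0.32. Of all genes, 0.872% passed and 0.0872% were called. The median of the 20 was −0.31, against −0.01 over all genes. Leaving out 1 DKO library took the count to between 2 and 5, where between 0.0866% and 0.233% of all genes passed. DESeq2 gave 10, and its share of all genes in DKO cells is given with the dependence on the processing. Static DKO cells were lower than static control cells in 13 of the 20 and higher in 3, where 27.2% and 27.0% of all genes were, with a median of −1.15 against 0.01 over all genes. Of the 3, Car12, a carbonic anhydrase, was 8.08-fold higher in DKO cells (20.4 ± 3.93 against 2.52 ± 0.28 CPM, edgeR adjusted p = 1.07e-08), and Adm was higher in DKO cells (18.3 ± 4.03 against 3.26 ± 0.48 CPM, log2 fold change 2.48, edgeR adjusted p = 4.65e-07), as was Vegfa (512 ± 42.2 against 378 ± 17.1 CPM, 0.44, edgeR adjusted p = 0.000499). Egln1 and Egln3 were thus among the genes of lower level in DKO cells.

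**Figure D5:**
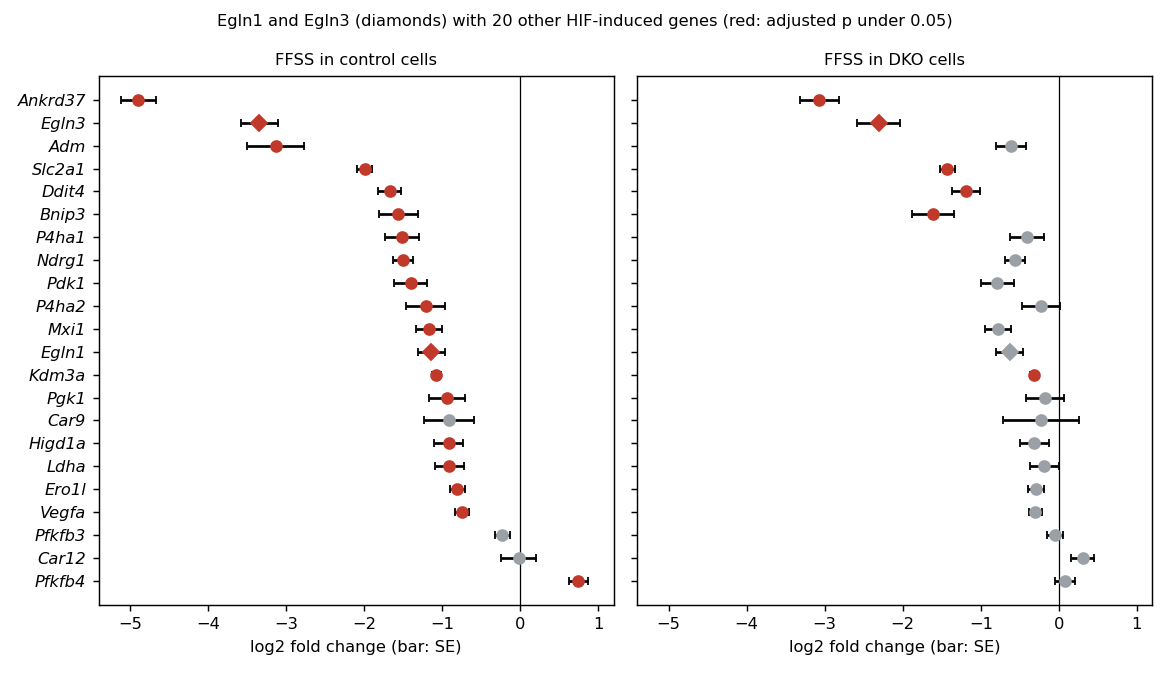
Log2 fold change with FFSS (x axis, bar: SE) of Egln1 and Egln3 (diamonds) and 20 other HIF-induced genes (circles) in control and in DKO cells, red where the edgeR adjusted p is under 0.05. In control cells only Ankrd37, at −4.89, lies lower than Egln3, and in DKO cells the same gene, at −3.07.

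Transcripts of proteins that act with the members were compared in the same way. Of 19 pathway partners (VHL ligase subunits, SIAH ligases, coactivators, chaperones and the CITED proteins), 18 were tested. With FFSS in control cells 4 passed, all lower, where 35.8% of all genes passed, and 0 were called, where 5.93% were. In DKO cells 0 passed, where 0.872% of all genes did, and DESeq2 also gave 0. At an unadjusted p under 0.05, 1 was counted in DKO cells, where 13.5% of all genes were. The median log2 fold changes of the 18 were −0.09 in control and −0.05 in DKO cells. The 4 most abundant were Hsp90ab1, a chaperone of the alpha subunits, at −0.27 with FFSS in control cells (edgeR adjusted p = 0.00328), Gnb2l1 (RACK1, which competes with it) at −0.22 (edgeR adjusted p = 0.0379), Fkbp8 at −0.16 (edgeR adjusted p = 0.0888) and Cited2, which competes for coactivators, at 0.06 (edgeR adjusted p = 0.805). The last pair passed without control FFSS replicate 1, Fkbp8 at −0.23 (edgeR adjusted p = 0.000948) and Cited2 at 0.29 (edgeR adjusted p = 2.03e-05). Fkbp8 overlaps 2810422J05Rik on the other strand, which held 6149 counts against its 55361, and Gnb2l1 overlaps genes that held 14953 counts against its 242461. Cited2 was 1.19 higher on the log2 scale in static DKO cells (edgeR adjusted p = 0.000201). The count of 4 became 2 without any single static control replicate, where between 24.2% and 25.5% of all genes passed. It was also 2 without control FFSS replicate 3, where 25.3% of all genes passed. Without control FFSS replicate 1 it became 10, where 55.0% of all genes passed.

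Of 11 other genes of the bHLH-PAS family, to which the HIF subunits belong, 8 were tested and 3 passed with FFSS in control cells, where 35.8% of all genes did: Npas2 fell from 43.0 ± 2.47 to 11.5 ± 7.17 CPM (log2 fold change −1.91, edgeR adjusted p = 0.00208), Npas1 rose from 0.51 ± 0.11 to 1.15 ± 0.17 CPM (1.17, edgeR adjusted p = 0.0223), and Ahr, the aryl hydrocarbon receptor, rose by 0.24 (edgeR adjusted p = 0.0141). The circadian genes Clock and Arntl were at 0.17 (edgeR adjusted p = 0.124) and −0.02 (edgeR adjusted p = 0.81), and Clock passed without control FFSS replicate 1 (0.26, edgeR adjusted p = 0.000795), where Npas2 was at −2.52 and Arntl at −0.05. In DKO cells Ahr alone passed, at 0.44 (edgeR adjusted p = 0.0154), where 0.872% of all genes passed. It did not pass when any 1 DKO library was left out, where between 0.0866% and 0.233% of all genes passed. The count in control cells was 5 without control FFSS replicate 1, where 55.0% of all genes passed. It was 1 without control static replicate 3, where 24.2% of all genes passed. With the covariate, whose share of all genes is given with the HIF-induced genes, it was also 1.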

How the data were processed

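Ocy454 cells gave 12 RNA-seq libraries, 3 per group. The deposited values are counts of reads per Ensembl gene, which the authors made from single-end BGISEQ reads with STAR on mm9 and HTSeq (the study's text gives more than 1 HTSeq version, and none is printed here), counted without strand. They were neither normalised nor filtered. Each library held 37583 gene IDs and 5 summary lines, which were left out of totals and tests. The reads HTSeq could not place in a gene made up between 5.25% and 10.3% of counted and unplaced reads.

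All 12 libraries were fitted as 4 groups with edgeR 4.0.16 (R 4.3.3), by the robust quasi-likelihood test with TMM normalisation and Benjamini-Hochberg adjustment over the 14904 of 24360 genes with counts that had 0 counts in fewer than 2 libraries. A gene passed at an adjusted p under 0.05 and was called if it also changed more than 2-fold. SE was obtained from the fold change and F. CPM uses TMM-scaled totals, log2 CPM a prior count of 2, and RPKM the union of exons of the mm9 annotation. The test was also run on simulated counts with changes put in, whose values are not given here, and no result rests on that run. Promoters were taken from RefSeq, where 9 of 10 members had an entry. Ratios used an exact two-sided permutation test (scipy 1.17.1). The limit of 3 counts for a 0 covers only counting error, since PCR reads without molecular identifiers are not independent molecules.

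Alternatives were RLE factors, library totals alone, edgeR's own filter or none, DESeq2 1.42.0, limma-voom (limma 3.58.1), a fit that was not robust, the replicate number as a block, the share of reads outside genes as a covariate, the 6 libraries compared alone, and leaving out each library. Members and lists were chosen with earlier results of these data known. Named are all members, the 4 most abundant genes of each list, any list gene called with FFSS, the 5 genes most like Egln3 and Egln1 (average log2 CPM above 1), Hdac4 and Hdac5. Pfkfb4, Car12, Pgk1, Higd1a, Car9, Siah2 and the marker genes named with their values were added after their values were seen.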

Additional observations from a re-analysis of the deposited data

Results flagged for a closer look

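The effect of FFSS differed between the genotypes, by the edgeR interaction test with Benjamini-Hochberg adjustment, for 5 of the 20 HIF-induced genes, 2 of the 18 pathway partners and 0 of the 9 members tested, where 3.97% of all genes passed (4 of the members had an unadjusted p under 0.05, with 2 passing in DESeq2). Without control FFSS replicate 1 these counts were 18 of 20, 7 of 18 and 7 of 9, where 37.6% of all genes passed, so the counts over all libraries rest on that library. Each value is the log2 effect in DKO cells minus that in control cells. For Adm it was 2.52 (SE 0.43, edgeR adjusted p = 0.00805), and 2.51 without control FFSS replicate 1. For Ankrd37 it was 1.82 (SE 0.39, edgeR adjusted p = 0.0221), and 2.28 without that library. Ndrg1 differed by 0.94 (SE 0.19, edgeR adjusted p = 0.0204), and by 1.07 without it. Kdm3a differed by 0.75 (SE 0.07, edgeR adjusted p = 0.000211), and by 0.76 without it. Slc2a1 differed by 0.56 (SE 0.13, edgeR adjusted p = 0.0341), and by 0.58 without it. Hsp90ab1, a pathway partner, differed by 0.35 (SE 0.08, edgeR adjusted p = 0.035), and by 0.39 without it. Siah2, a ubiquitin ligase of that list, differed by 0.37 (SE 0.08, edgeR adjusted p = 0.0306), and by 0.36 without it. In each of the 7 the value in DKO cells was the less negative or the higher.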

How the results depend on the processing

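Egln3 passed with FFSS in control cells and in both comparisons of genotypes under every alternative. With FFSS in control cells the 6 members past the threshold became 3 (Arnt, Egln1 and Egln3) with the share of reads outside genes as a covariate, where 15.3% of all genes passed. In DKO cells the count of 1 became 4 with the covariate (9.96% of all genes), 3 with DESeq2 (3.69%) and 5 with the 6 libraries alone (11.2%). It was between 0 and 1 when single DKO libraries were left out, where between 0.0866% and 0.233% of all genes passed. For the difference of the FFSS effects between genotypes the count of 0 became 1 with library totals alone (Hif1an, against 5.60% of all genes). It became 1 with the covariate (Arnt, 5.85%) and 2 with DESeq2 (9.59%). When single libraries were left out it was between 0 and 7, where between 1.2% and 37.6% of all genes passed. The cause of these changes was not tested. Library totals alone moved the median of all genes to 0.13 with FFSS in control cells, −0.13 for the interaction and −0.25 between genotypes under FFSS, so member values under about that size are relative to it. Signs that turned belonged to values that had not passed. With the covariate, the values with FFSS in control cells were 0.50 for Epas1, −0.70 for Arnt2 and 0.05 (0.0509) for Egln2, and the interaction of Hif1a was −0.03 (−0.0256). With library totals alone they were 0.05 (0.0499) for Egln2 in control cells, 0.00065 for Hif1an in DKO cells, −0.09 (−0.0866) for the interaction of Hif1a and −0.00419 for that of Egln2, and −0.16 (−0.164) for Hif1an between genotypes under FFSS, which then passed (edgeR adjusted p = 0.0349). Leave-one-out ranges that crossed 0 are −0.14 (−0.136) to 0.00395 for Egln2 with FFSS in control cells, −0.0413 to 0.0225 for Hif1an in DKO cells, −0.019 to 0.0519 for the interaction of Hif1a, and −0.137 to 0.0804 for Vhl between genotypes under FFSS.
Under the replicate block the members past the threshold numbered 6, 1 and 0 for FFSS in control cells, in DKO cells and the interaction, and 8 and 7 between genotypes, as without it. Same-numbered libraries did not deviate together (mean correlation 0.00226 across genes, between −0.0603 and 0.0631 over 18 pairs), so the numbers were not taken as pairs.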

Other observations

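Over the 12 libraries, the genes whose log2 CPM followed Egln3 most closely by Pearson's r, among 11272 of average log2 CPM above 1, were Pfkl (r = 0.995), Slc2a1 (0.993), Stx2 (0.990), Mapre3 (0.990) and March9 (0.988). Pfkl, a subunit of the glycolytic enzyme phosphofructokinase, averaged 517 ± 21.5 CPM in static control, 167 ± 26.5 in FFSS control, 162 ± 33.7 in static DKO and 63.9 ± 0.57 in FFSS DKO cells (SD, n = 3 each). Those closest to Egln1 were Arrb1 (0.994), Ddah2 (0.993), Selenbp1 (0.992), Prc1 (0.992) and Gng11 (0.991), and r between Egln1 and Egln3 was 0.962. These correlations run over 4 groups of 3 libraries and share the difference between the genotypes, so they are descriptions of level and carry no p.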
